A study of Mus musculus with 12 samples.

Results

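Csf2ra encodes the alpha chain of the receptor for GM-CSF, the growth factor that drives survival and proliferation of myeloid cells. Dhrsx encodes a short-chain dehydrogenase of the dolichol pathway, which supplies the lipid carrier for N-glycosylation. Both lie in the pseudoautosomal region of the human sex chromosomes and are autosomal in the mouse, and both have been named as genes whose expression depends on ATRX, a SWI/SNF-type chromatin remodeller that acts with DAXX to deposit histone H3.3 at repetitive and G-rich DNA. The members were chosen by gene name in the deposited transcript tables, with Csf2ra taken up because it was already seen to be lower in the knockout here. Of these 2 genes, 1 was measured: Csf2ra, among 54532 genes and 137862 transcripts. Dhrsx had 0 rows under its symbol or its RefSeq synonyms and was not analysed here.

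RNA-seq of total hippocampal RNA covered 12 libraries from mice aged 3 months, in 4 groups of 3, namely females and males that were either controls or Atrx-cKO. cKO stands for conditional knockout, and the title of the series places the Atrx deletion in neurons. The Cre driver, the deleted exons and what genotype the controls carry are not stated in the sources used here. The labels do not say that each library is a separate mouse, so p-values measure the spread between these libraries, which may be technical.

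Atrx itself was lower in the cKO libraries. Its deposited FPKM (fragments mapped, scaled by transcript length and library size) was 55.6 to 63.6 in the 3 female controls and 31.0 to 38.2 in the 3 female cKO libraries. In males it was 40.2 to 46.9 against 32.3 to 36.5. No cKO library reached a control library of its sex, as in 0.51% of 24323 genes. Depth ran from 1.16 to 8.64 Gb of mapped bases. Olfactory and vomeronasal receptor genes, which serve the sensory cells of the nose, gave a median background of 0.00677 to 0.607 FPKM in 10 libraries, but of 1.99 and 2.27 FPKM in cKO females 2 and 3. On a scale from which that median had been subtracted library by library, the log2 difference of Atrx, cKO minus control, was −0.88 ± 0.11 (SE) in females (limma adjusted p = 0.0198) and −0.67 ± 0.08 as the mean of the sexes (adjusted p = 0.0143), comparisons in which 0.111% and 0.0206% of 24323 genes were called. In males it was −0.47 ± 0.11, which did not pass (adjusted p = 1). Atrx had a negative difference under each setting run, but its calls did not hold under each. With no background subtraction, and scaling over all genes above 0 in each library, they were lost (−1.47 in females, adjusted p = 0.0887, and −1.02 for the mean, adjusted p = 0.121). With nothing subtracted and libraries scaled over protein-coding genes they were lost too (−0.25, adjusted p = 0.248, and −0.28, adjusted p = 0.107), and so was the mean on deposited FPKM (adjusted p = 0.103). The female call was also lost without cKO females 2 and 3 (adjusted p = 0.114) and when any 1 control female, cKO female 2 or 3, or control male 1 or 2 was left out (adjusted p of 0.0503 to 0.115). The call for the mean was lost without cKO females 2 and 3 (adjusted p = 0.0513) and when control female 1 or 2, any 1 control male or cKO male 1 was left out (adjusted p of 0.059 to 0.0808). These libraries hold tissue RNA, so fewer cells of a type and less RNA per cell cannot be told apart.

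GM-CSF binds the alpha chain with low affinity, and the complex gains high affinity and signalling through the common beta chain, Csf2rb, with JAK2 and STAT5 downstream. In the brain the receptor is best known on microglia and other macrophages. Csf2ra (ENSMUSG00000059326) had a single transcript in the tables, ENSMUST00000076046, with 12 exons and 1849 bases on the minus strand of chromosome 19 (GRCm38.p6, chr19:61224402-61228418). GENCODE M21 lists 8 transcripts of the gene, so the value of this gene is that of 1 model.

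The 250 bases upstream of its start site are shown because ATRX is known for G-rich and CpG-rich DNA. They are taken from RefSeq on GRCm38.p6 (chr19:61228419-61228668, minus strand) and read 5′ to 3′ toward the start site, with every CG dinucleotide in capitals.
Csf2ra: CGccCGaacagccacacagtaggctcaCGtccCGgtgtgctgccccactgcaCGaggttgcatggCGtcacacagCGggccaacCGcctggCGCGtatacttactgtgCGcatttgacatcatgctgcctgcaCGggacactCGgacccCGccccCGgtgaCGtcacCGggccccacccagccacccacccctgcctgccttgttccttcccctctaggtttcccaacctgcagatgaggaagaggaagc
This window held 17 CG dinucleotides and was 64.8% G or C, against medians of 6 and 52.4% over 32841 mouse promoter windows of the same length. As many CG dinucleotides were present in 23.5% of those windows. Crlf2 and Il3ra, homologues of other pseudoautosomal genes, had 24 and 27, Gtpbp6 had 17, and Il9r had 5. Plcxd1 had a mean of 6.5 over 2 windows, and Mid1 a mean of 4.67 over 3. These counts are a property of the sequence, and no binding or methylation was measured here.

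No cKO library reached the Csf2ra level of any control of its sex. Deposited FPKM was 1.81, 1.86 and 2.14 in control females 1 to 3 and 1.20, 1.33 and 0.967 in cKO females 1 to 3. It was 2.38, 1.69 and 1.52 in control males 1 to 3 and 0.977, 1.05 and 0.660 in cKO males 1 to 3. The lowest of the 6 controls, control male 3, stood above the highest of the 6 cKO libraries, cKO female 2. This contrast chose the gene, so its values are a description and carry no test. Every cKO library lay below every control of its own sex in 4.99% of 24323 genes in females, 2.13% in males and 0.51% in both sexes. The share with all 6 cKO libraries below all 6 controls was not computed.

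**Figure D1:**
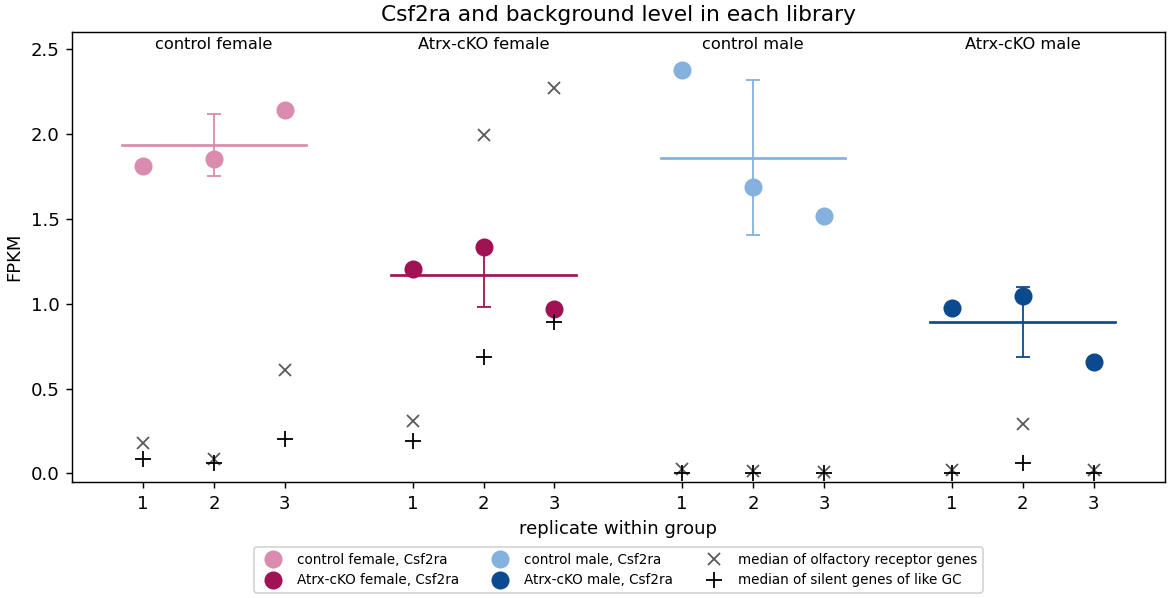
Deposited FPKM of Csf2ra (filled circles) in each of the 12 libraries, by group and replicate, with the group mean (horizontal line) and SD (bar, n = 3), beside the median FPKM of olfactory and vomeronasal receptor genes (crosses) and of silent genes whose GC content is like that of Csf2ra (plus signs). The 6 cKO circles lie between 0.660 and 1.33 FPKM and the 6 control circles between 1.52 and 2.38, while the receptor median exceeds Csf2ra in cKO females 2 and 3.

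The order of the group means of deposited FPKM was control females (1.94 ± 0.18, SD, n = 3), control males (1.86 ± 0.46), cKO females (1.17 ± 0.18) and cKO males (0.894 ± 0.206). Both control groups overlapped, and so did both cKO groups. The mean of the cKO females was 39.7% below that of their controls, and that of the cKO males 52.0% below. Mean coverage of the transcript, the reads over each base, was 7.72 to 14.7 in female controls against 1.55 to 5.13 in female cKO libraries, and 12.1 to 16.9 against 3.83 to 8.30 in males. The 2 female libraries of highest background, cKO females 2 and 3, were also those of lowest Csf2ra coverage, at 1.55 and 2.77. Coverage is not scaled for depth, unlike FPKM. Depth was 1.162 and 2.865 Gb in these 2 libraries and 3.602 to 7.896 Gb in the female controls. At that lowest coverage, cKO female 2 had the highest FPKM of the cKO libraries (1.33).

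How much of the Csf2ra signal in those 2 libraries stands above background depended on the genes that set the background. The Csf2ra transcript was 61.6% G or C, at the 97.7th percentile of 21918 protein-coding genes, whose median was 48.7%. Receptor genes had a median of 39.0%. Silent genes were taken as those under 0.05 FPKM in each of the 5 libraries whose receptor median was under 0.05, so the background of those 5 libraries is close to 0 by that choice. In these 6438 genes the background of cKO female 3 was 1.78 FPKM at 36 to 39% GC and 0.893 FPKM at 60 to 63% GC (66 genes), and that of cKO female 2 was 1.40 and 0.683 FPKM. The course between these ranges was not even, with a dip at 45 to 48% and a second peak at 48 to 51%. Csf2ra, at 0.967 and 1.33 FPKM, was thus below the receptor median in both libraries, and above the median of silent genes of its own GC content by 0.0744 FPKM in cKO female 3 and 0.649 FPKM in cKO female 2.

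**Figure D2:**
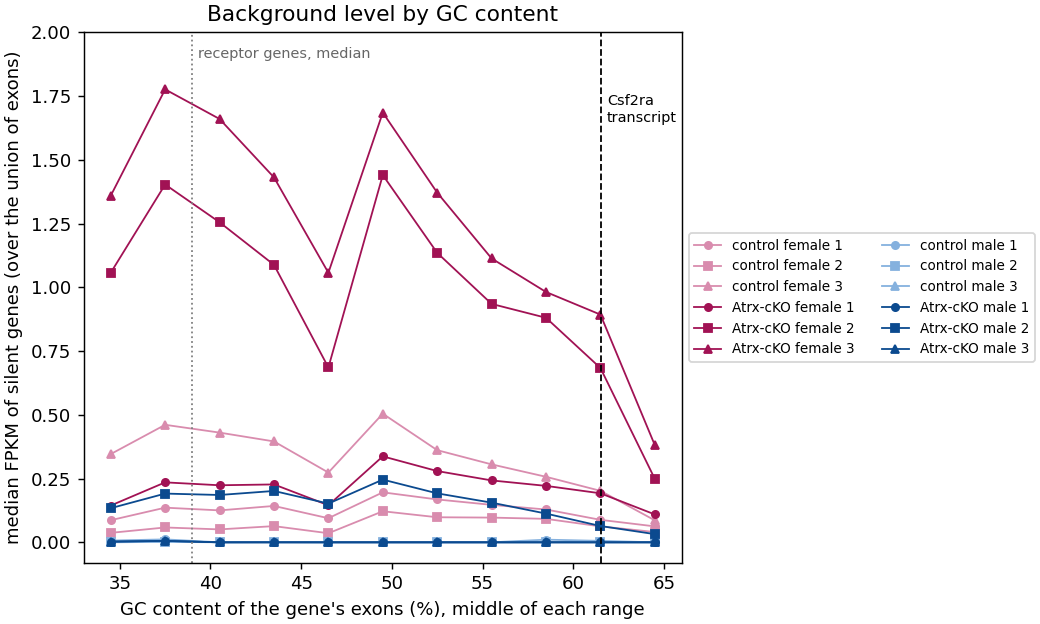
Median FPKM of silent genes, taken over the union of a gene's exons (vertical axis), in ranges of 3 percentage points of exon GC content (horizontal axis), 1 line per library. The lines of cKO females 2 and 3 lie far above the others and are at 0.683 and 0.893 FPKM at the GC content of Csf2ra (dashed line), below their level near the median GC of receptor genes (dotted line).

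With the receptor median subtracted and libraries scaled over 5418 protein-coding genes, Csf2ra stood at 1.43, 1.53 and 1.49 in the female controls. The cKO females 1 to 3 stood at 0.816, 0 and 0. It stood at 2.05, 1.60 and 1.38 in control males and 0.852, 0.708 and 0.607 in cKO males. The values of 0 in cKO females 2 and 3 are set by the subtraction. With the background of genes of like GC content subtracted instead, an alternative chosen after seeing the data, the cKO females stood at 0.940, 0.882 and 0.105 and their controls at 1.55, 1.59 and 1.90. The cKO males stood at 0.892, 0.937 and 0.641 on that scale, and their controls at 2.12, 1.66 and 1.43. The groups of either sex did not overlap on either scale. The share of all genes so separated was not computed on these scales.

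Fold changes were taken as log2(value + 0.5), which understates the change of a gene this low. The log2 difference of Csf2ra, cKO minus control, was −1.52 ± 0.35 (SE) in females, −0.83 ± 0.35 in males and −1.17 ± 0.25 as the mean of the sexes after receptor subtraction. With the GC-matched background it was −1.03 ± 0.32 in females and −0.75 ± 0.32 in males. On deposited FPKM without scaling or subtraction it was −0.55 in females and −0.75 in males. The male value moved little between these scales, and the female value moved by over 1.5 times. Without cKO females 2 and 3 the female value was −0.59, from cKO female 1 alone, and without cKO female 1 it was −1.99.

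A further scaling gave a smaller female difference. When deposited FPKM was divided by the factors from protein-coding genes with nothing subtracted, also chosen after seeing the data, cKO females 1 to 3 stood at 1.10, 2.00 and 1.51 and their controls at 1.59, 1.60 and 2.09. These groups overlapped, and the log2 difference was −0.17 ± 0.42. In males the same scaling gave 0.871, 0.982 and 0.624 in the cKO and 2.08, 1.61 and 1.39 in the controls, which did not overlap (−0.72 ± 0.42). The share of all genes so separated was not computed on this scale either. The cKO males thus stood below their controls on each scale run, whereas the place of cKO females 2 and 3 depended on the background removed.

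**Figure D3:**
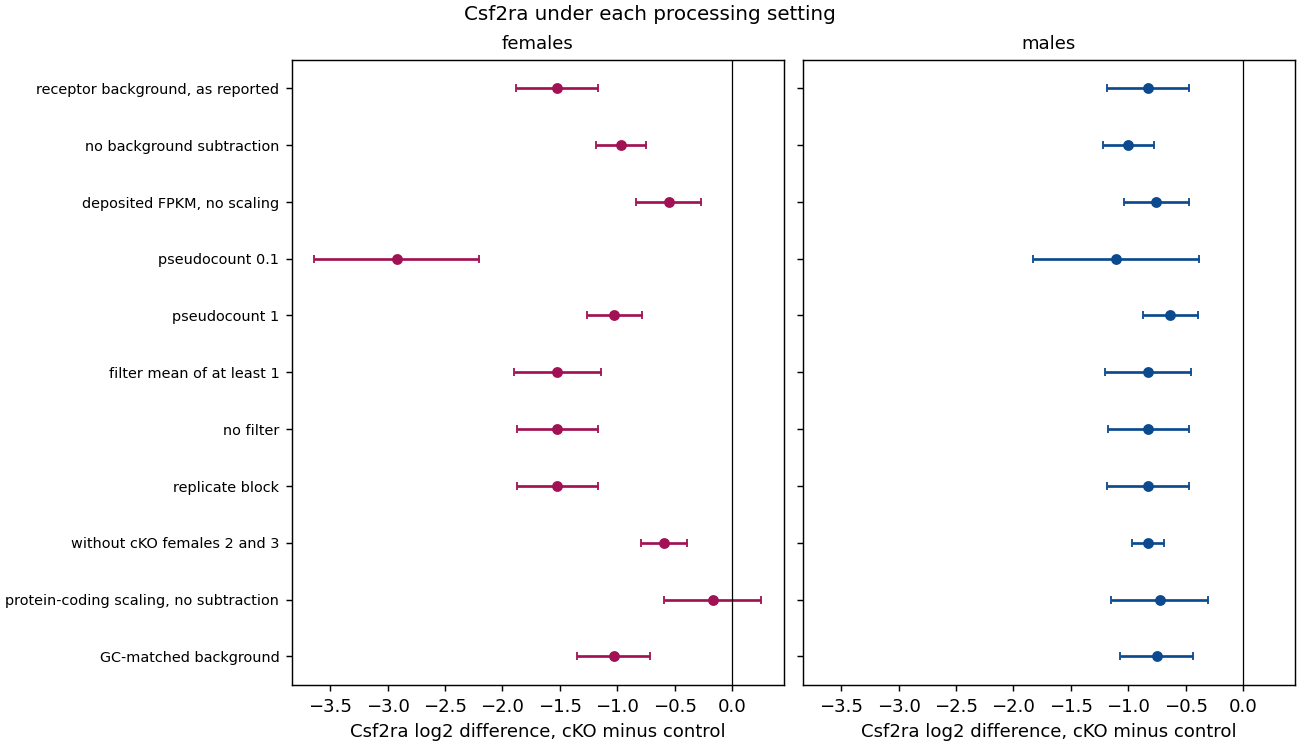
Log2 difference of Csf2ra, cKO minus control (horizontal axis, point and SE bar), in females (left) and males (right) under each processing setting. Male values lie between −1.11 and −0.63, and female values between −2.92 and −0.17.

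The sex of the mice was not used to choose Csf2ra, and could be tested. Background differed with sex in the controls, with receptor medians of 0.00677 to 0.0282 FPKM in males and 0.0875 to 0.607 in females. The part of background in any sex difference was not tested. Control males and control females did not differ detectably (log2 difference, male minus female, 0.12, 95% interval −0.66 to 0.90, limma adjusted p = 0.864). Over both genotypes the males were higher by 0.47 (95% interval −0.08 to 1.02), with an exact two-sided permutation p of 0.135 over 400 arrangements of sex within genotype, of which the smallest possible is 0.005. That direction turned on deposited FPKM (−0.16, exact permutation p = 0.195), and with the GC-matched background it was 0.17 (exact permutation p = 0.58). It was 0.45 with no background subtraction (exact permutation p = 0.015) and 0.70 without cKO female 1 (exact permutation p = 0.025). Without cKO females 2 and 3 it was 0.0059. limma's unadjusted p for this contrast was under 0.05 in 54.4% of all genes after receptor subtraction. That share was 75.2% with no subtraction and 66.8% without cKO female 1. The male effect minus the female effect was 0.70 (SE 0.50, limma adjusted p = 0.503). Without cKO female 1 that difference was 1.16 (adjusted p = 0.0088), in a comparison then made against the 2 libraries at 0, and it was −0.24 without cKO females 2 and 3. With all 12 libraries limma called 0% of 24323 genes in this contrast at an adjusted p under 0.05, and 2204 at an unadjusted p under 0.05. Without cKO female 1 it called 7249 of 23268 genes, and 42.95% had an unadjusted p under 0.05.

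Csf2ra was then set beside the other mouse homologues of human pseudoautosomal genes, a list of 19 of which 11 were in the tables and 8, Csf2ra among them, passed the filter of at least 0.5 in 3 libraries. Crlf2 is the receptor for TSLP, Gtpbp6 a GTP-binding protein, Plcxd1 a phospholipase domain protein, Ppp2r3d a regulatory subunit of protein phosphatase 2A, Mid1 a ubiquitin ligase, Vamp7 a vesicle SNARE and Spry3 a Sprouty signalling antagonist. Of these 7 other genes, 0 passed limma's test in either sex, where 0.111% of all genes tested were called in females and 0.00411% in males. At an unadjusted p under 0.05 there were 4 in females and 0 in males, whereas 36.5% of all genes tested were under that value in females and 1.54% in males. With the GC-matched background 2 of the 7 were under it in females, beside 43.1% of all genes. Their median log2 difference was −0.55 in females and −0.05 in males, beside 0.09 and 0.06 over all genes tested.

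Crlf2, which like Csf2ra encodes a cytokine receptor chain, had a deposited FPKM of 0.748, 1.55 and 1.10 in the female controls. The cKO females stood at 0.700, 0.294 and 0.706, without overlap. Such separation in females was found in 4.99% of 24323 genes. In males its groups overlapped, at 1.41, 0.613 and 0.595 in controls and 0.648, 1.04 and 0.766 in the cKO. Its log2 difference was −0.88 ± 0.32 in females (adjusted p = 0.088) and −0.15 ± 0.32 in males (adjusted p = 1). Gtpbp6, at 63.8% GC, was the homologue most moved by the background: its female difference was −1.12 with receptor subtraction and 0.09 with the GC-matched background, on deposited FPKM of 4.51 to 5.26 in controls and 5.95 to 6.81 in the cKO. Vamp7 was 20.9 to 25.2 FPKM in the female controls and in cKO female 1, and 10.9 and 11.7 in cKO females 2 and 3. The female median of the 7 genes stayed below that of all genes tested with the GC-matched background (−0.46 against 0.47), where 4 of 7 values were negative in place of 6.

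**Figure D4:**
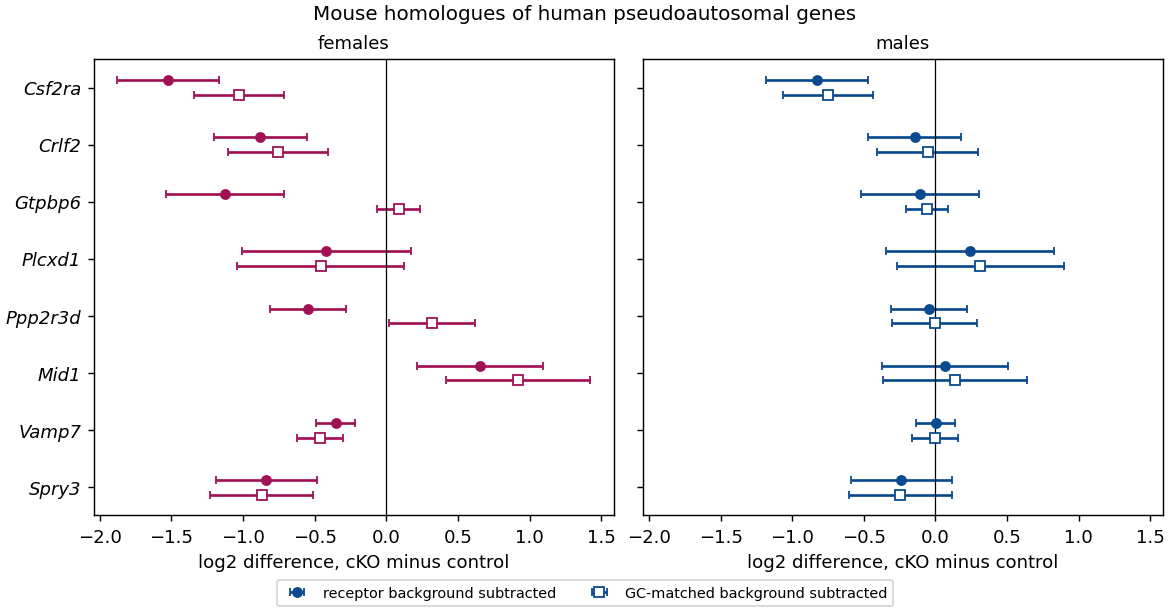
Log2 difference, cKO minus control, with SE, for Csf2ra and the 7 other homologues tested, in females (left) and males (right), after subtraction of the receptor background (filled circles) or of the GC-matched background (open squares). In males the values of the other 7 lie between −0.24 and 0.31 and that of Csf2ra is −0.83 or −0.75, while in females Gtpbp6 and Ppp2r3d change sign between the scales.

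The partners of Csf2ra in receptor assembly were near the background. Csf2rb, the common beta chain, had deposited FPKM of 0.167 to 0.318 in control males and 0.192 to 1.03 in cKO males. In females it was 0.548 to 1.81 in controls and 1.34 to 3.38 in the cKO, and the values of either sex were highest in libraries of high background. None of the 4 other receptor chains (Csf2rb, Csf2rb2, Il3ra and Il5ra) and none of the 3 ligands (Csf2, Il3 and Il5) passed the filter, so Csf2ra was the only receptor chain tested. Csf2, which encodes GM-CSF, was listed at 0 in control males 2 and 3 and in cKO male 3.

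Downstream of the receptor, 10 of 12 signalling genes were tested and limma called 0 of them in females and in males, with 2 and 0 at an unadjusted p under 0.05, in females a smaller share than the 36.5% of all genes. Their median log2 difference was −0.05 in females and 0.02 in males. The female median turned to 0.22 with the GC-matched background, where 5 of 11 had an unadjusted p under 0.05 beside 43.1% of all genes. The kinase Jak2 was at 13.2 ± 1.1 FPKM (SD, n = 3) in female controls against 11.6 ± 1.7 in the female cKO, and at 12.7 ± 0.9 against 12.6 ± 1.3 in males. Its log2 difference was 0.11 in females (adjusted p = 0.396) and −0.01 in males (adjusted p = 1). Pik3r1, the regulatory subunit of PI3-kinase, was higher in control males than in control females by 0.29 (adjusted p = 0.042), a comparison in which 5.47% of all genes were called. That call was lost with no background subtraction (0.78, adjusted p = 0.145), on deposited FPKM (0.12, adjusted p = 0.464), with protein-coding scaling (0.14, adjusted p = 0.61) and with no filter (adjusted p = 0.0888). It was also lost when any 1 of the 6 control libraries, cKO male 1 or cKO male 3 was left out (adjusted p of 0.05002 to 0.146). The other members of highest level were the phosphatase Ptpn11 (−0.13 in females, −0.01 in males, as log2 differences) and the adaptor Grb2 (0.76 in females, adjusted p = 0.095, and 0.37 in males, adjusted p = 1).

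Of the inhibitors of the receptor, 3 of 6 were tested (Socs2, Ptpn6 and Inpp5d), and of its targets 2 of 4 (Bcl2l1, an anti-apoptotic gene, and the kinase Pim1). limma called 0 of these 5 in either sex, and 0 had an unadjusted p under 0.05. Bcl2l1 had log2 differences of 0.33 ± 0.20 in females and 0.23 ± 0.20 in males. The female values depended on the background. With the GC-matched one 2 of 3 inhibitors and 3 of 3 targets had an unadjusted p under 0.05, beside 43.1% of all genes, and limma still called 0. The phosphatase Ptpn6 turned from −0.49 to 0.58 ± 0.22 (adjusted p = 0.0738), and Bcl2l1 was 0.55 ± 0.18 (adjusted p = 0.0624). On deposited FPKM, where the median of all genes was 0.88, Ptpn6 was 0.82 (adjusted p = 0.0493) and Socs2 0.90 (adjusted p = 0.0493) in females. On that scale limma called 10452 of 43399 genes in females. Cish, Socs1 and Socs3, inhibitors that STAT5 and other STATs induce, were not above the filter.

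For the pathway of Dhrsx, its partners were measured although the gene was not. All 9 listed genes of dolichol synthesis and use were tested, and limma called 0 in either sex, with 0 at an unadjusted p under 0.05. Their median log2 difference was −0.18 in females and 0.02 in males. The female median turned to 0.21 with the GC-matched background. With no background subtraction it was −0.46, with 9 of 9 values negative and 4 at an unadjusted p under 0.05, beside 42.1% of all genes. Srd5a3, the polyprenal reductase of the pathway, had a log2 difference of 0.19 ± 0.21 in females and 0.19 ± 0.21 in males. Dhdds and Nus1, both subunits of the enzyme that builds the polyprenyl chain, had −0.65 ± 0.38 and −0.18 ± 0.11 among the females. The male values were −0.03 ± 0.38 and −0.10 ± 0.11. Of 14 related short-chain dehydrogenases, all tested, 0 were called in either sex and 5 in females and 0 in males had an unadjusted p under 0.05, close to the shares over all genes (36.5% and 1.54%). Their female median was −0.19, and turned to 0.22 with the GC-matched background. Among those of highest level, Dhrs7b had 0.33 ± 0.09 in females (adjusted p = 0.069) and 0.11 ± 0.09 in males (adjusted p = 1), and Rdh11 had 0.41 ± 0.13 and 0.03 ± 0.13.

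Because the GM-CSF receptor is known from microglia, Csf2ra was set beside 16 microglia markers, of which 15 were tested. limma called 0 in either sex, with 4 in females and 0 in males at an unadjusted p under 0.05 (36.5% and 1.54% of all genes), and the median log2 difference was −0.30 in females and −0.09 in males. With no background subtraction 8 of 16 markers in females and 1 in males had an unadjusted p under 0.05, beside 42.1% and 2.33% of all genes. Their medians were then −0.62 and −0.32, and 13 and 15 of the 16 values were negative. The lowest marker value in males was then −1.013, beside −0.997 for Csf2ra, and on deposited FPKM it was −0.773, beside −0.754. With the GC-matched background the female median was −0.03. On deposited FPKM it was 0.01, with 2 markers called higher and 1 lower in females, beside 10452 of 43399 genes called in either direction. Ctss, a lysosomal protease and the most abundant of them, had log2 differences of 0.10 ± 0.17 in females and −0.06 ± 0.17 in males. Csf1r, the receptor for the myeloid growth factors CSF-1 and IL-34, had −0.30 ± 0.20 and −0.18 ± 0.20. P2ry12, the purinergic receptor of resting microglia, had −0.39 ± 0.18 and −0.07 ± 0.18, and C1qa had −0.39 ± 0.33 and 0.17 ± 0.33. Tmem119 matched Csf2ra in females, at −1.53 ± 0.47 with receptor subtraction (adjusted p = 0.072), and was −0.56 with the GC-matched background. Cx3cr1, the fractalkine receptor, was 1.11 to 2.48 FPKM in control males and 0.745 to 0.787 in cKO males, without overlap, with a log2 difference of −0.72 ± 0.75 (adjusted p = 1). Such separation in males was found in 2.13% of 24323 genes. Both Tmem119 and Cx3cr1 were picked after their values were seen.

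**Figure D5:**
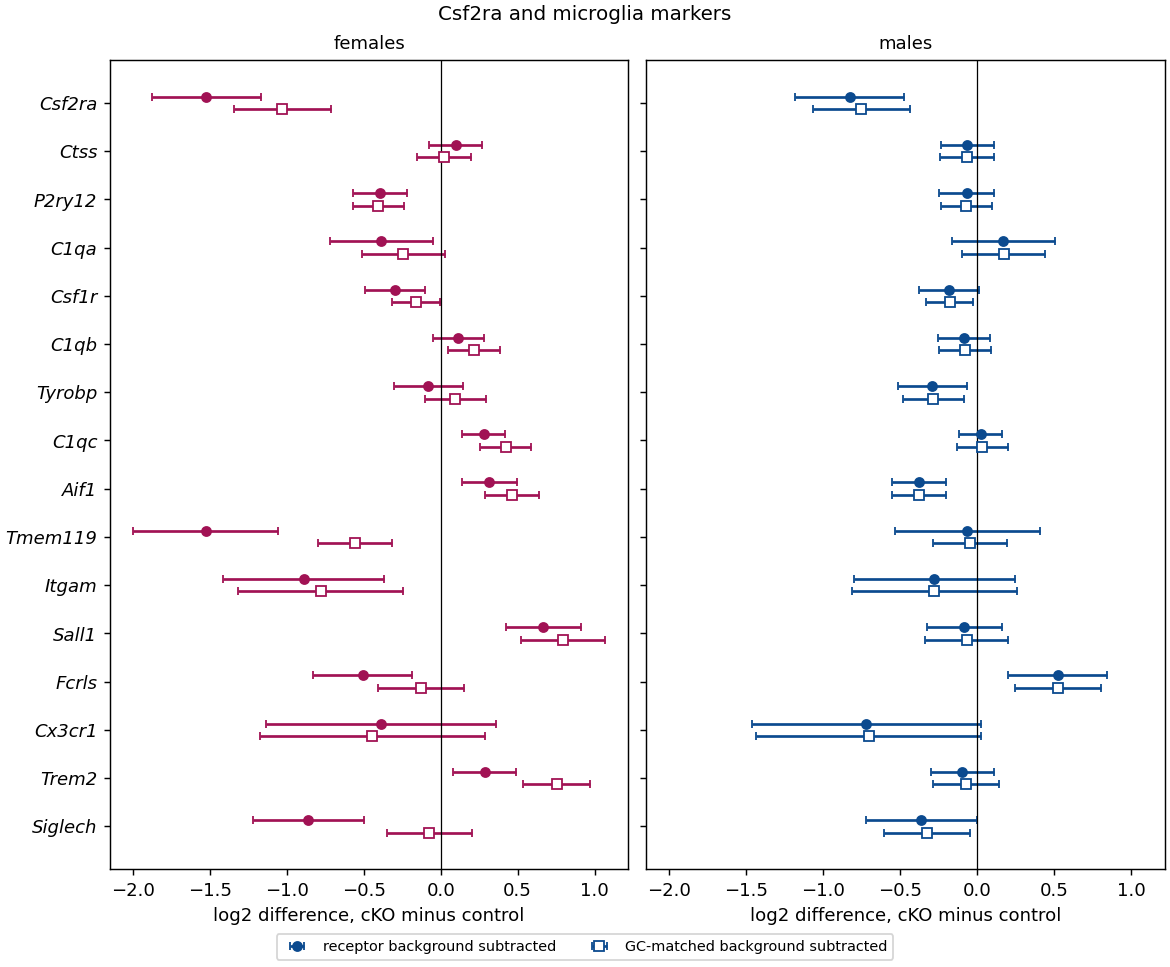
Log2 difference, cKO minus control, with SE, for Csf2ra (top row) and the 15 microglia markers tested, in order of level, in females (left) and males (right), on the receptor-subtracted (filled circles) and GC-matched (open squares) scales. On the receptor-subtracted scale Csf2ra is at −0.83 in males and the markers lie between −0.72 and 0.53. In females Tmem119 at −1.53 lies with Csf2ra on that scale.

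Summed over the 16 markers, microglial FPKM was 138 to 147 in female controls against 125 to 147 in the female cKO, and 190 to 197 against 162 to 195 in males. The ranges overlapped within each sex. As a percentage of that sum, Csf2ra on deposited FPKM was 1.36 ± 0.09 (SD, n = 3) in female controls and 0.862 ± 0.184 in the female cKO. In males it was 0.96 ± 0.22 and 0.50 ± 0.15. The groups of a sex did not overlap in this ratio: it was 1.29 to 1.46 against 0.703 to 1.06 in females, and 0.801 to 1.21 against 0.353 to 0.645 in males. Csf2ra was chosen on this contrast, so the ratio is a description and carries no test. How many other genes separate in such a ratio was not computed. The microglial sum was higher in every male library than in every female library, and Aif1, a calcium-binding protein of microglia, was higher in control males than in control females (log2 difference 0.79, adjusted p = 0.0272), whereas for Csf2ra that difference was 0.12. The Aif1 call was lost with no background subtraction (adjusted p = 0.0534), on deposited FPKM (adjusted p = 0.0973), with protein-coding scaling (adjusted p = 0.388) and with no filter (adjusted p = 0.0645). It was also lost when any 1 control female or control male 2 or 3 was left out (adjusted p of 0.0595 to 0.116).

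Markers of other cells moved with some of the groups. The 9 genes of border macrophages and monocytes, which also carry the GM-CSF receptor, summed to 6.40 to 15.1 FPKM in female controls and 10.4 to 42.1 in the female cKO, with the highest sums in cKO females 2 and 3. In males they summed to 4.98 to 5.91 in controls and 4.53 to 9.02 in the cKO. Of the 4 tested, limma called 0 in either sex, with 1 in females and 0 in males at an unadjusted p under 0.05 (36.5% and 1.54% of all genes). This was Pf4, a chemokine, with a log2 difference of 1.85 ± 0.56 (adjusted p = 0.071). Their female median was 0.52, and 1.08 with the GC-matched background, where 4 of 4 had an unadjusted p under 0.05, beside 43.1% of all genes. On deposited FPKM 3 of 8 were called higher in females, where limma called 10452 of 43399 genes and the median of all genes was 0.88. The part of these cells in the Csf2ra result was not tested. The choroid plexus markers Ttr, Kl and Folr1 summed to 1316 to 4018 FPKM in control males and to 2508, 47.2 and 46.8 in cKO males 1 to 3. In females the sum was 20.2, 5746 and 16.8 in controls 1 to 3 and 31.4 to 37.1 in the cKO. Csf2ra was 1.81 and 2.14 FPKM in the 2 control females with low sums and 0.977 in the single cKO male with a high one, and the part of choroid plexus in the Csf2ra result was not tested. Neuronal markers had a median log2 difference of −0.08 in females and −0.13 in males, with 0 of 6 called by limma and 0 at an unadjusted p under 0.05. With no background subtraction the female median was −1.20, with 5 of 6 at an unadjusted p under 0.05, beside 42.1% of all genes. On deposited FPKM it was −0.47, and limma called 3 of 6 lower in females, beside 10452 of 43399 genes in either direction.

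Of 5 astrocyte markers limma called 0 in either sex. Their median log2 difference was 0.01 in females and −0.23 in males. In males 5 of 5 values were negative and 1 had an unadjusted p under 0.05, beside 1.54% of all genes. Their summed FPKM was 440 to 483 in control males and 344 to 422 in cKO males, without overlap, and 282 to 326 and 208 to 372 in females. Among single genes, 2.13% of 24323 were so separated in males. Of 4 oligodendrocyte and 3 endothelial markers 0 were called, with 0 at an unadjusted p under 0.05. The female medians were −0.15 and −0.53, and both male medians were 0.04. Of 4 hippocampal marker genes 0 were called, with 3 in females and 1 in males at an unadjusted p under 0.05 (36.5% and 1.54% of all genes). Their medians were −0.37 and −0.01. With no background subtraction the female medians of the astrocyte, oligodendrocyte and hippocampal lists were −1.04, −1.21 and −0.98. The part of these cells in the Csf2ra result was not tested.

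Csf2ra lies near the end of chromosome 19, with 1 gene of the tables beyond it, Gm21060. Of 17 genes within 500 kb, 12 were tested and limma called 0 in either sex, with 5 in females and 1 in males at an unadjusted p under 0.05 (36.5% and 1.54% of all genes). The nearest gene of substantial level was Zfp950, a zinc finger gene 83.6 kb away, at 18.6 to 19.4 FPKM in female controls and 16.2 to 19.9 in the female cKO. In males it was 14.3 to 21.5 and 14.7 to 18.7. Its groups overlapped in both sexes, and its log2 difference was −0.31 ± 0.16 in females (adjusted p = 0.165) and 0.13 ± 0.16 in males (adjusted p = 1). Eif3a and Prdx3, a translation initiation factor and a mitochondrial peroxidase, had log2 differences between −0.14 and 0.06 in both sexes. Gm7102, 48.1 kb away, was at 4.36 and 3.76 FPKM in cKO females 2 and 3 and at 0.0702 to 1.67 in the other libraries.

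The 5 genes whose level most resembled that of Csf2ra over the 12 libraries, among 11439 genes averaging 1 or more on the receptor-subtracted scale, were Ap1s1 (Pearson r = 0.97), Med16 (0.96), Gsg1l (0.96), Tmtc3 (0.95) and Man1c1 (0.94). These are a subunit of the AP-1 clathrin adaptor, a Mediator subunit, an auxiliary subunit of AMPA receptors, a glycosyltransferase of the endoplasmic reticulum and a Golgi mannosidase. The correlations share the libraries, their depth and the subtracted background. On deposited FPKM Gsg1l was 3.96 to 4.91 in female controls and 3.12 to 3.29 in the female cKO, and 3.78 to 4.77 and 3.23 to 3.27 in males, without overlap in either sex. Gsg1l was picked for its likeness to Csf2ra, itself chosen as lower in the cKO, so its separation follows in part from that choice. Such separation in both sexes was found in 0.51% of 24323 genes. Tmtc3 instead had its highest deposited values in cKO females 2 and 3, at 4.51 and 5.99 FPKM.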

How the data were processed

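The deposited tables give FPKM and the mean coverage of each transcript in 12 libraries. The submitters' processing notes name HISAT2 2.0.4, StringTie and the build GRCm38.p6. Use of strand, annotation release and filters are not given in the sources used here, and the tables hold no counts. FPKM deposited by the authors was summed per gene. For the fit, bases per gene were divided by the union length of the listed exons (GENCODE M21), the median of 1459 receptor genes was subtracted in each library (negative values set to 0), and median-of-ratios factors came from protein-coding genes averaging 5 or more. Genes at 0.5 or more in at least 3 libraries were fitted as log2(value + 0.5) with limma 3.58.1 (trend, robust; R 4.3.3) on 4 group means, two-sided. Benjamini-Hochberg adjustment ran over 24323 genes, with a threshold of 0.05. The fit was tested on simulated data that had the levels and spread of the male groups. No simulated library had the raised background of cKO females 2 and 3, so that test does not cover it. No p is given for Csf2ra in the contrast that chose it.

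Members and lists were chosen with earlier results of these data known. Named genes were Csf2ra, Atrx, list members past the threshold or otherwise up to 4 of highest level, neighbours within 500 kb and the 5 genes of highest correlation. Other subtractions, pseudocounts, filters, a replicate block and left-out libraries were tried. A marker gene is not reported here and was left out of its list.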

Additional observations from a re-analysis of the deposited data

How the results depend on the processing

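Over 12 refits that left out 1 library each, the log2 difference of Csf2ra, cKO minus control, ran from −1.99 to −1.29 in females. It ran from −0.93 to −0.71 in males and from −1.41 to −1.06 as the mean of the sexes. Leaving out a library of 1 sex could not move the value of the other sex. Neither the filters nor the replicate block could move the value of either sex. The log2 difference kept its sign under every alternative run. In females it was −0.97 with no background subtraction, −0.55 on deposited FPKM, −2.92 with a pseudocount of 0.1, −1.02 with a pseudocount of 1, −0.59 without cKO females 2 and 3, −0.17 with protein-coding scaling and no subtraction, and −1.03 with the GC-matched background. The mean of the sexes was −0.65 on deposited FPKM, −2.01 with a pseudocount of 0.1, −0.71 without cKO females 2 and 3, and −0.45 with protein-coding scaling. The male effect minus the female effect turned negative with no subtraction (−0.030), on deposited FPKM (−0.20), without cKO females 2 and 3 (−0.24) and with protein-coding scaling (−0.56), and ran from 0.46 to 1.16 with 1 library left out. Male minus female ran from 0.36 to 0.70 with 1 library left out. It was 0.45 with no subtraction (exact permutation p = 0.015), where limma's unadjusted p was under 0.05 in 75.2% of all genes. It turned to −0.16 on deposited FPKM and −0.33 with protein-coding scaling. The causes were not tested.

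Of all genes, 27 were called in females, 1 in males, 5 for the mean of the sexes, 0 for the difference between the sexes and 1330 between control males and females. With 1 library left out these counts ran from 1 to 11699, 0 to 2, 3 to 9612, 0 to 7249 and 312 to 2399, the highest values in females, for the mean, the difference and the controls being without cKO female 1. In females the count was 0 with no subtraction, 10452 on deposited FPKM, 11 with a filter on means of at least 1, 13 without cKO females 2 and 3, 25288 with protein-coding scaling and 14 with the GC-matched background. In males it was 0 with no subtraction, on deposited FPKM and with protein-coding scaling, and 2 with the GC-matched background. For the mean it was 0 with no subtraction and 3 with protein-coding scaling. Between controls it was 104 with no subtraction, 341 on deposited FPKM, 723 with no filter, 3243 without cKO females 2 and 3 and 582 with protein-coding scaling. The median female difference of all genes was 0.09 as reported, 0.31 with no subtraction, 0.88 on deposited FPKM and 0.47 with the GC-matched background.

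Same-numbered control and cKO libraries did not deviate together (correlations of 0.204, −0.309 and 0.4 in females and 0.0227, −0.0948 and 0.174 in males), so the numbers were not taken as pairs, although the study's design is worded in pairs of mice. With a replicate block the values of Csf2ra were −1.52 and −0.83, which it could not change because each block pairs a control with a cKO library. Under that block limma called 0 genes in females, in males, for their mean and for the difference. The calls of Atrx were thus lost (adjusted p = 0.0778 in females and 0.17 for the mean). Use of the main transcript alone gave no separate value, since Csf2ra has 1 transcript. The tables hold no counts, so no counting interval could be given.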
